A study of Rattus norvegicus with 16 samples.

Results

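The 9 genes described here belong to the JAK-STAT pathway in the hippocampus of adult male Sprague-Dawley rats, and were taken by their symbol on a rat gene expression array out of 26583 genes named there. They are a receptor chain for oncostatin M (Osmr), the receptor subunit that the interleukin-6 family of cytokines shares (Il6st, also called gp130), the kinases Jak1 and Jak2, the transcription factors Stat3 and Stat2, and the feedback inhibitors Socs3, Socs1 and Socs2. Each gene had 1 probe of 60 bases, so each value below is that of a single probe. Single-colour arrays of 16 rats were analysed, each from the microdissected whole hippocampus, collected 24 h after injury. Naive rats (n = 3) were neither anesthetized nor handled, and Sham rats (n = 2) were anesthetized and prepared for injury but not injured. TBI rats (n = 3) received a severe parasagittal fluid-percussion injury, a pressure pulse delivered onto the dura. The remaining rats received the same injury and a compound: PMI-006 by gavage (TBI+PMI, n = 3), JM6 by gavage (TBI+JM6, n = 3), or E33, which the design text names as estrogen (TBI+E33, n = 2). The route of E33 is subcutaneous in the labels and intraperitoneal in the study's methods. Whether TBI rats received a vehicle is not given in the sources used here.

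When a cytokine of the interleukin-6 family binds, receptor chains pair with Il6st, the kinases bound to them phosphorylate the receptor and STAT proteins dock, are phosphorylated and enter the nucleus. STAT3 then switches on its target genes, among them Socs3, whose product binds the receptor and the kinase and shuts the signal down, so that transcripts of Socs3 and of Stat3 itself are often read as a trace of pathway activity. In the injured brain the pathway is best known from reactive astrocytes and microglia, which take up STAT3 signalling as they respond to cytokines released at the lesion.

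The probes of the SOCS family are shown because the inhibitors are related proteins and a probe that reads several of them would blur the comparison. Between any pair of the 9 probes, at most 29 of 60 bases matched. The probes were compared with each other and not with the transcripts of the other genes. Whether a probe reads several of the inhibitors was therefore not tested. The Socs3 probe covers the end of the coding sequence, and the stop codon is in capitals. The Socs1 and Socs2 probes are given in lower case throughout.
Socs3: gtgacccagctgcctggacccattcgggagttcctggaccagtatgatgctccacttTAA
Socs1: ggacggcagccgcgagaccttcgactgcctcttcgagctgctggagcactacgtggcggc
Socs2: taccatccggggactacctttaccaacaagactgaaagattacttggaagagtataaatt
In rn4 these probes lie at chr10:107958636-107958695 on the minus strand for Socs3, chr10:4820384-4820443 on the plus strand for Socs1 and chr7:32605827-32605886 on the minus strand for Socs2. The Stat3 probe (chr10:89821145-89821204, minus strand) is the poorest in G and C of the 9, at 25%, and the Socs1 probe the richest, at 68.3%. The remaining probes lie at chr2:56080710-56080769 (Osmr, minus), chr2:43842305-43842364 (Il6st, plus), chr5:121805280-121805339 (Jak1, minus), chr1:232974483-232974542 (Jak2, plus) and chr7:1580592-1580651 (Stat2, plus).

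Values are log2 of the probe's signal over the 75th percentile of the signals well above background on the same array and are not comparable between probes. A value of 0 is that percentile. The number of probes well above background on an array was 16274 to 18239 on the Naive, Sham and TBI arrays and 20256 to 24979 on the arrays of drug-treated rats. These sets were also scanned in separate sessions, 8 arrays in each, so drug treatment and session cannot be told apart. All 9 genes were measured on every array without saturation and passed the filter for testing. Il6st passed only through the TBI+E33 group, where 2 of 2 arrays were well above background. Socs1 passed only through TBI+JM6 (3 of 3 arrays) and TBI+E33 (2 of 2), and Osmr only through the drug groups. Stat2, Stat3, Jak1, Jak2 and Socs2 were well above background on 16 of 16 arrays, Socs3 on 12, Osmr on 11, Socs1 on 9 and Il6st on 3.

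After TBI, Stat3 was raised against both control groups, Osmr against Sham and Socs3 against Naive. Stat3 was 3.62-fold higher than in Sham and 2.84-fold higher than in Naive rats. The kinases Jak1 and Jak2, the interferon-side factor Stat2 and the inhibitors Socs1 and Socs2 did not pass the test in either comparison, and Il6st was not well above background on any array of the 3 groups. In TBI vs Sham, 2 of 9 genes were called, where 8.69% of all 20035 tested genes were called (3.09% higher and 5.6% lower). In TBI vs Naive, 2 of 9 were called, both higher, against 4.78% of all genes (3.01% higher). The arrays of TBI and Sham did not overlap for 5 of 9 genes, all higher in TBI, where 18.2% of all genes were higher without overlap. Il6st was among these 5, below background in both groups. TBI and Naive did not overlap for 5 of 9 genes either, again all higher in TBI, where 12.7% of all genes were. The 3 TBI arrays are shared by these 2 comparisons. Both Sham arrays were on slide 1 and all 3 TBI arrays on slide 2. Injury and slide therefore cannot be told apart in TBI vs Sham. In whole tissue, a change in the number of cells of a type and a change in RNA per cell cannot be told apart.

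**Figure D1:**
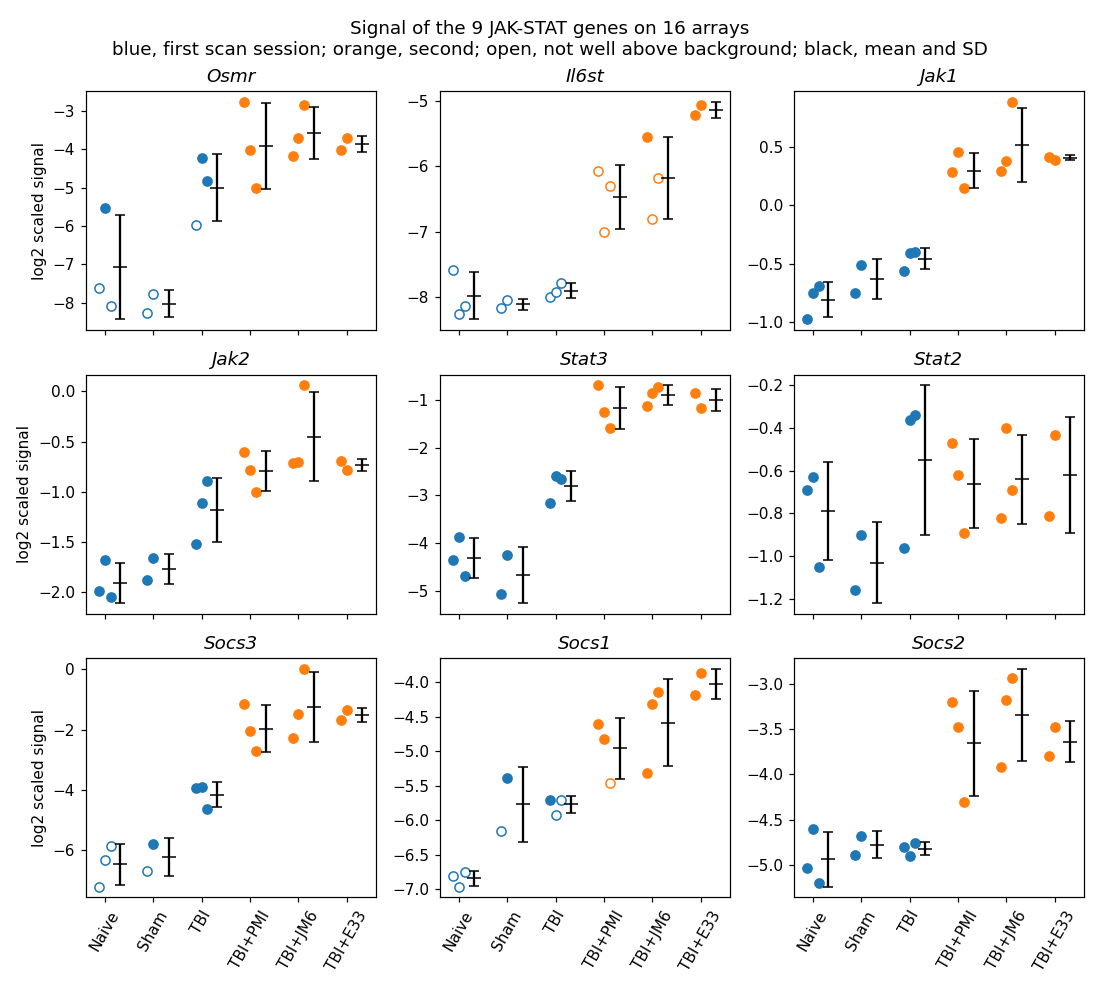
Log2 scaled signal of the 9 genes (y axis, own scale in each panel) on each of 16 arrays, by group (x axis). Points are arrays, open where not well above background, and black marks are the group mean and SD. Stat3 and Socs3 lay higher on all 3 TBI arrays than on the 5 Naive and Sham arrays, and higher again on the 8 arrays of the second session.

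Osmr, the receptor chain that binds oncostatin M, read -7.60, -5.53 and -8.09 on the Naive arrays, -8.27 and -7.77 on the Sham arrays and -5.96, -4.23 and -4.82 on the TBI arrays. Every TBI array was above both Sham arrays, but Naive array 2 was as high as the TBI range and was the 1 control array on which the probe was well above background. The log2 change was 3.02 ± 0.77 (SE, n = 3 and 2) against Sham, with a limma adjusted p of 0.031. No Sham array measured the probe well above background, and only 2 of 3 TBI arrays did. With Sham values raised to at least the lowest signal well above background on their arrays, the fold of the means was 2.49. That fold carries no sampling error, and the 95% confidence interval of the log2 change was 1.35 to 4.69. Against Naive the change was 2.07 ± 0.69 (SE, n = 3 and 3) with a limma adjusted p of 0.106, which did not pass. Without Naive array 2 it was 2.85, with a limma adjusted p of 0.0336. The Sham call was lost without either Sham array (limma adjusted p = 0.15 and 0.102) and without TBI array 2 or 3 (limma adjusted p = 0.102 and 0.0928), and with normexp background correction, under which the change was 1.21 (limma adjusted p = 0.718), and with the slide as a fixed block (4.55, limma adjusted p = 0.514). Il6st, the partner of Osmr in the receptor, read between -8.25 and -7.58 on all 8 Naive, Sham and TBI arrays, below the level at which its probe gives a measurement.

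Jak1, a kinase bound to Il6st, ranged from -0.98 to -0.69 in Naive, from -0.75 to -0.51 in Sham and from -0.56 to -0.40 in TBI rats. The TBI arrays were above all Naive arrays but overlapped with Sham, and the changes of 0.17 ± 0.20 and 0.35 ± 0.18 (SE) had limma adjusted p of 0.617 and 0.281. Jak2, the kinase that also serves growth hormone and erythropoietin receptors, read -1.99, -1.68 and -2.05 in Naive, -1.88 and -1.66 in Sham and -1.52, -1.11 and -0.89 in TBI rats. All 3 TBI arrays were above all 5 control arrays. The changes were 0.59 ± 0.26 (SE, 95% confidence interval 0.03 to 1.15) against Sham and 0.73 ± 0.23 (SE) against Naive, and neither passed, with limma adjusted p of 0.169 and 0.0921.

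Stat3, the factor activated by the interleukin-6 family, read -4.35, -3.87 and -4.69 on the Naive arrays, -5.07 and -4.24 on the Sham arrays and -3.15, -2.60 and -2.65 on the TBI arrays. The lowest TBI array was above the highest control array. The log2 change was 1.86 ± 0.33 (SE, limma adjusted p = 0.00894) against Sham and 1.51 ± 0.29 (SE, limma adjusted p = 0.0159) against Naive. Naive and Sham did not differ beyond their spread (-0.35 ± 0.33, SE, limma adjusted p = 0.591). Within the 1 slide that held TBI arrays and a Naive array, TBI was higher by 1.89. The call against Sham was lost without Sham array 1 (1.44, limma adjusted p = 0.0702), and the call against Naive without Naive array 1 or TBI array 2 or 3 (limma adjusted p = 0.0581 to 0.0631). Both were lost with normexp background correction (1.38 and 1.14, limma adjusted p = 0.158 and 0.222) and with the slide as a fixed block (2.44 and 1.89, limma adjusted p = 0.428 and 0.264). With that block, the change against Naive rests on the 1 Naive array that shared a slide with TBI. The change against Sham is indirect, through the Naive arrays on both slides. Stat2, which carries the type I interferon signal, lay between -1.16 and -0.34 on all 8 arrays. Its groups overlapped, with changes of 0.48 ± 0.24 and 0.24 ± 0.22 (SE) and limma adjusted p of 0.228 and 0.585.

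Socs3, the inhibitor that STAT3 itself induces, read -7.21, -6.34 and -5.86 in Naive, -6.68 and -5.79 in Sham and -3.95, -3.91 and -4.63 in TBI rats. It was well above background on all 3 TBI arrays, on 1 of 2 Sham arrays and on no Naive array, and the TBI arrays were above all control arrays. Against Naive the log2 change was 2.30 ± 0.55 (SE, 95% confidence interval 1.10 to 3.50, limma adjusted p = 0.0351). With Naive values raised to at least the lowest signal well above background on their arrays, the fold of the means was 3.65. That fold carries no sampling error. Against Sham it was 2.07 ± 0.62 (SE, 95% confidence interval 0.73 to 3.41), and the limma adjusted p of 0.0538 did not pass. The Naive call held without Naive array 3 (limma adjusted p = 0.0466) and was lost without any other of the 6 arrays (limma adjusted p = 0.0547 to 0.135). It was also lost with normexp background correction (1.15, limma adjusted p = 0.502), without the filter on dim probes (limma adjusted p = 0.0555), on the authors' matrix (1.65, limma adjusted p = 0.0519) and with the slide as a fixed block (1.69, limma adjusted p = 0.44). Against Sham it passed with limma on the 2 groups alone (limma adjusted p = 0.0457), when scaled to the percentile of all probes on the array (0.0292) and with the slide as a random block (0.02).

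Socs1, the inhibitor best known from interferon signalling, read -6.80, -6.96 and -6.75 in Naive, -6.15 and -5.39 in Sham and -5.70, -5.92 and -5.70 in TBI rats. It was higher in both surgical groups than in Naive rats without overlap, by 1.06 ± 0.31 in TBI and 1.07 ± 0.35 in Sham (SE), but neither passed (limma adjusted p = 0.0695 and 0.0801), and only 1 array of each surgical group was well above background. TBI vs Naive passed when scaled to the percentile of all probes (limma adjusted p = 0.0386) and with the slide as a random block (0.048). It did not pass under quantile normalization (0.12), on the authors' matrix (0.123) or with normexp (0.805). TBI and Sham had the same mean, -5.77, with a difference of 0.00 and a 95% confidence interval of -0.75 to 0.75. Socs2, which restrains growth hormone signalling, lay between -5.20 and -4.61 on all 8 arrays and changed by -0.03 ± 0.33 against Sham and 0.13 ± 0.30 against Naive (SE, limma adjusted p = 0.96 and 0.872). In Sham vs Naive, limma called none of the 9 genes, against 7.05% of all genes. Socs1 had an unadjusted p under 0.05 and was the 1 of 9 genes whose arrays did not overlap, where 23.2% of all genes were higher without overlap, and 1 gene passed the methods' t-test.

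**Figure D2:**
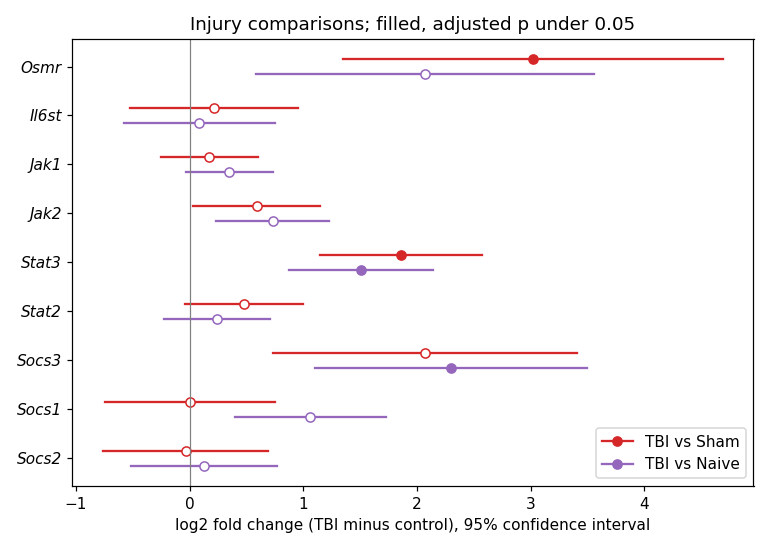
Log2 fold change of the 9 genes (x axis) in TBI against Sham and against Naive rats, with 95% confidence intervals from limma; filled points have an adjusted p under 0.05. Osmr and Stat3 passed against Sham, and Stat3 and Socs3 against Naive.

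The other genes of the pathway were taken as lists, of which all members are accounted for by counts. Of 20 ligands, 10 were bright enough to be tested, Il6 not among them, and none was called in TBI vs Sham by limma (median log2 change 0.64, against -0.01 over all genes), with 2 at an unadjusted p under 0.05 and 1 called under quantile normalization. In TBI vs Naive 1 ligand was called: Clcf1, a cytokine of the Cntf receptor, had a mean of -2.66 in TBI and -6.93 in Naive rats, where no array was well above background (limma adjusted p = 0.00438). It is named after its values were seen. Of 20 tested receptors of 24, 1 rose and 1 fell in TBI vs Sham (median 0.38), and 1 rose in TBI vs Naive (median 0.37). Il2rg, the chain shared by receptors of several lymphocyte cytokines, rose by 1.46 ± 0.39 (SE, limma adjusted p = 0.0375). Cntfr, the receptor of ciliary neurotrophic factor, which also signals through Il6st, fell by 1.13 on the log2 scale with an SE of 0.22 (limma adjusted p = 0.0124), and was not called after quantile normalization, at -0.88. None of 5 tested JAKs and STATs outside the 9 genes (median 0.47) and none of 12 tested negative regulators (median -0.06) was called by limma in TBI vs Sham, with 2 and 4 at an unadjusted p under 0.05. In TBI vs Naive none of the 5 JAKs and STATs was called (median 1.13, 4 at an unadjusted p under 0.05), and 2 of the 12 negative regulators were called higher (median 0.31). These were Socs4, a SOCS family member, at 0.85 ± 0.20 (SE, limma adjusted p = 0.0295) and Ptpn6, a phosphatase of blood and immune cells, at 1.53 ± 0.33 (SE, limma adjusted p = 0.0232), both named after their values were seen.

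Some target genes of STAT3 were called higher after TBI. In TBI vs Sham, 2 of 13 tested targets were called, both higher (median 0.66, against -0.01 over all genes), and in TBI vs Naive 8 of 13, all higher (median 1.60, against 0.04). Of all genes, 3.09% and 3.01% were called higher in these comparisons. In Sham vs Naive, 1 of 13 was called higher (median 0.58, against 0.03), with 3 at an unadjusted p under 0.05. Differences between these counts were not tested. Timp1, an inhibitor of matrix metalloproteinases, was higher in TBI than in Sham by 3.88 ± 0.76 (SE, limma adjusted p = 0.0127), from a mean of -2.03 to 1.85. Bcl3, a nuclear partner of NF-kB, was higher by 2.47 ± 0.51 (SE, limma adjusted p = 0.0145). Of 18 interferon targets, 1 was called in TBI vs Sham (median 0.60) and 2 in TBI vs Naive (median 0.96). The call against Sham was Gbp2, a guanylate-binding protein, at 1.73 ± 0.49 (SE, limma adjusted p = 0.0446).

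**Figure D3:**
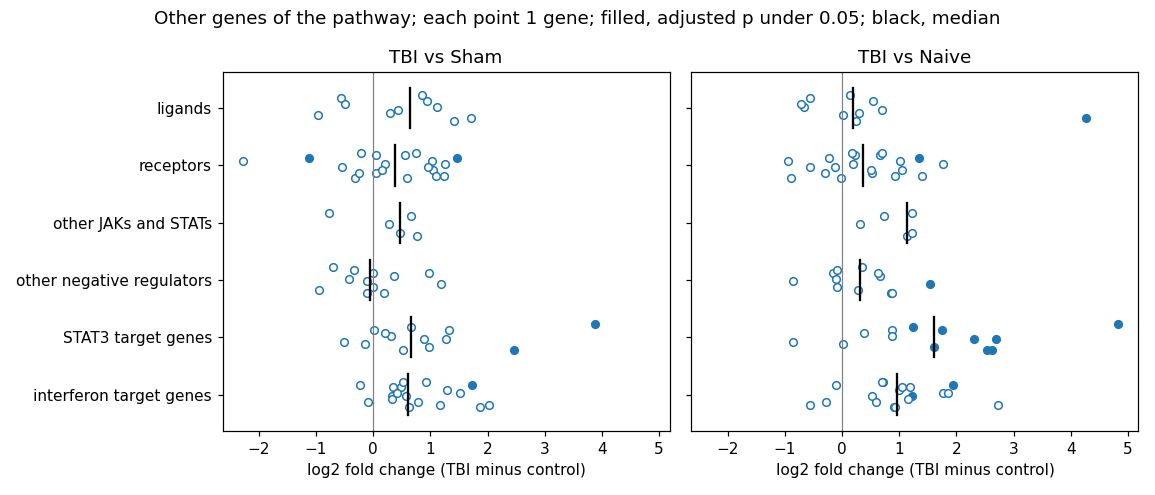
Log2 fold change in TBI against Sham (left) and Naive rats (right) for the tested genes of 6 pathway lists (y axis). Each point is 1 gene, filled where the adjusted p was under 0.05, and black lines are medians. STAT3 targets had 8 filled points of 13 against Naive and 2 of 13 against Sham.

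Markers of some cell types differed between TBI and control rats, not always against both controls. Of 7 leukocyte markers (Ptprc, S100a8, S100a9, Mpo, Itgal, Cd3e and Cd14), all but Mpo were bright enough to be tested. The summed scaled signal of these 6 was 0.151 to 0.275 on Naive, 0.39 to 0.611 on Sham and 1.33 to 4.82 on TBI arrays. Of the 6 genes, 4 were called higher in TBI vs Sham and 6 in TBI vs Naive. Of all genes, 3.09% were called higher and 5.6% lower in TBI vs Sham. In TBI vs Naive 4.78% were called, 3.01% higher. The part of leukocyte RNA in the changes of Osmr, Stat3 and Socs3 was not tested. The 7 astrocyte markers summed to 21.0 to 26.7 on Naive and Sham arrays and 23.1 to 23.5 on TBI arrays, and limma called none in TBI vs Sham, with 2 at an unadjusted p under 0.05. Among them Gfap, which is also on the list of STAT3 targets, was higher by 0.52 ± 0.36 (SE, limma adjusted p = 0.391) against Sham and by 2.53 ± 0.32 (SE, limma adjusted p = 0.00272) against Naive. In TBI vs Naive it was the 1 astrocyte marker called higher, and 2 of 7 were called lower (median -0.17), Aldh1l1 at -0.80 ± 0.21 and Gjb6 at -1.61 ± 0.41 (SE, limma adjusted p = 0.0475 and 0.042), named after their values were seen. Markers of microglia (1 higher and 2 lower of 7), neurons (3 lower of 6) and hippocampal fields (2 lower of 6) were present in all groups, the counts being those called in TBI vs Sham. In TBI vs Naive, 0 microglia and 0 neuron markers were called, and 1 hippocampal field marker was lower. In Sham vs Naive, 1 astrocyte, 1 leukocyte, 1 microglia, 2 neuron and 2 hippocampal field markers were called higher. The list medians were -0.12, 1.13, 0.37, 0.80 and 0.57 in that order. Of all genes, 7.05% were called in either direction in Sham vs Naive. The 4 tested of 7 choroid plexus markers summed to 4.88 to 121 on Sham and 0.188 to 3.52 on TBI arrays, with none called by limma and 1 at an unadjusted p under 0.05, and their part was not tested.

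In drug-treated rats, Stat3 was called higher than in TBI in all 3 drug groups under both scalings given here but not with the base composition trend removed, Socs3 in TBI+JM6 under both, and Stat2 lower in all 3 after quantile normalization. The 75th percentile scaling left a difference between the sessions. The median of all tested probes was higher by 0.99 in TBI+JM6, 0.79 in TBI+PMI and 1.08 in TBI+E33 than in TBI, and by no more than 0.01 in size after quantile normalization, which gives all arrays 1 distribution. Limma called 7 of 9 genes in TBI+JM6 vs TBI, all higher, where 68.9% of all genes were called and 68.7% were higher. It called 6 of 9 in TBI+PMI vs TBI, all higher, where 54.7% of all genes were called higher, and 6 of 9 in TBI+E33 vs TBI, all higher, where 69.2% were called and 69.1% were higher. Arrays were higher without overlap for 8, 6 and 8 of 9 genes, against 71.7%, 60.6% and 84.1% of all genes. These shares are near those of all genes. Under quantile normalization limma called 2 genes higher and 1 lower in TBI+JM6, where 26.8% of all genes were called, 12.9% higher and 13.9% lower. It called 1 higher and 1 lower in TBI+PMI, where 18.9% were called, 9.28% higher and 9.62% lower, and 1 higher and 1 lower in TBI+E33, where 20.2% were called, 10% higher and 10.2% lower. The 3 comparisons share the TBI arrays.

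Stat3 read -0.70, -1.25 and -1.58 in TBI+PMI, -1.12, -0.86 and -0.73 in TBI+JM6 and -0.85 and -1.18 in TBI+E33 rats. All 8 arrays were above all TBI arrays. Against TBI the log2 change was 1.90 ± 0.29 in TBI+JM6, 1.63 ± 0.29 in TBI+PMI and 1.79 ± 0.33 in TBI+E33 (SE), which is 0.90, 0.84 and 0.71 above the median of all probes. Under quantile normalization it was 1.02 ± 0.24, 0.89 ± 0.24 and 0.85 ± 0.27 (SE), with limma adjusted p of 0.0102, 0.025 and 0.0427. The Stat3 probe is low in G and C, and with each array's trend of signal on base composition removed the changes were 0.67, 0.56 and 0.36 and none passed (limma adjusted p = 0.0855, 0.149 and 0.397).

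Socs3 read -1.15, -2.06 and -2.72 in TBI+PMI, -2.27, -1.49 and 0.01 in TBI+JM6 and -1.69 and -1.36 in TBI+E33 rats, again above all TBI arrays. TBI+JM6 array 3 was the highest of all 16. Against TBI the change was 2.91 ± 0.55 in TBI+JM6, 2.19 ± 0.55 in TBI+PMI and 2.64 ± 0.62 in TBI+E33 (SE), or 1.92, 1.40 and 1.56 above the median of all probes, and all 3 were called. Under quantile normalization TBI+JM6 passed (1.82 ± 0.48, SE, limma adjusted p = 0.0168), and TBI+PMI (1.22 ± 0.48, SE) and TBI+E33 (1.49 ± 0.54, SE) did not (limma adjusted p = 0.0919 and 0.0691). In TBI+JM6 it also passed with the trend on base composition removed (1.64, limma adjusted p = 0.0122) and in each of 6 fits without 1 array, at 2.28 to 3.42.

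Osmr read -2.77, -4.01 and -5.00 in TBI+PMI, -4.19, -3.70 and -2.84 in TBI+JM6 and -4.01 and -3.72 in TBI+E33 rats, and was well above background on all 8 arrays. Its changes against TBI were 1.08 ± 0.69, 1.43 ± 0.69 and 1.14 ± 0.77 (SE), and none passed (limma adjusted p = 0.192, 0.0798 and 0.195). After quantile normalization the values were -0.30, -0.11 and -0.75. Stat2 was level with TBI under the 75th percentile scaling (-0.10, -0.09 and -0.07 in TBI+PMI, TBI+JM6 and TBI+E33), while the median probe was higher, and after quantile normalization it was lower in each, at -0.70 ± 0.19, -0.83 ± 0.19 and -0.84 ± 0.22 (SE), with limma adjusted p of 0.027, 0.00971 and 0.0191.

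Jak1, Socs1 and Socs2 were called higher than TBI in all 3 drug groups by 0.76 to 1.75 under the 75th percentile scaling. Jak2 was called higher in TBI+JM6 alone of the 3 (0.73 ± 0.23, SE, limma adjusted p = 0.0139). Socs1 was well above background on 1 of 3 TBI arrays. It was tested only through TBI+JM6 and TBI+E33, so its calls in the drug groups are no support for a change. None of these 4 genes passed in any drug group after quantile normalization, where Socs1 was at -0.23 to -0.78 and Jak2 at -0.04 to -0.37. With the trend on base composition removed, Jak2 was called lower in all 3 drug groups (-0.53 in TBI+JM6, -0.66 in TBI+PMI and -0.94 in TBI+E33) and Jak1 lower in TBI+E33 (-0.39). Il6st read -6.08, -7.01 and -6.31 in TBI+PMI, -5.55, -6.80 and -6.18 in TBI+JM6 and -5.22 and -5.06 in TBI+E33 rats, but was well above background on 0 of 3, 1 of 3 and 2 of 2 arrays. It was called in all 3 under the 75th percentile scaling (limma adjusted p = 0.00185, 0.000371 and 3.77e-05), and in none after quantile normalization. With TBI values raised to at least the lowest signal well above background on their arrays, the TBI+E33 mean was 1.77-fold above TBI. The probe was tested only because the TBI+E33 arrays were well above background, so this call and fold are no support for a change. In TBI+PMI vs TBI, no array of either group was well above background.

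**Figure D4:**
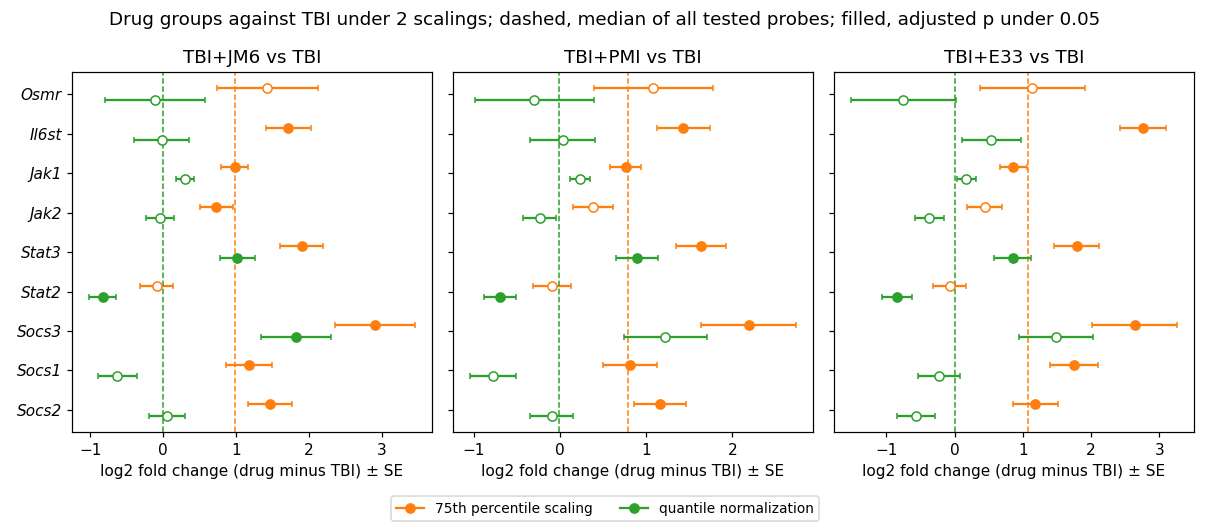
Log2 fold change ± SE of the 9 genes in each drug group against TBI (x axis) with 75th percentile scaling and with quantile normalization; dashed lines are medians of all tested probes under the same scaling, and filled points have an adjusted p under 0.05. Stat3 lay to the right of both medians in all 3 panels and Stat2 to the left.

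The drug groups were compared with each other within their session, over 3 pairs, with p-values adjusted over all probes in each pair. The gavaged compounds and E33 differed in route, and doses are not given in the labels, so the differences are those between the treatments as given. Limma called none of the 9 genes in any pair, against 0.00997% of all genes in TBI+JM6 vs TBI+PMI, 0.015% in TBI+JM6 vs TBI+E33 and 0.11% in TBI+PMI vs TBI+E33. At an unadjusted p under 0.05 the counts were 0, 1 and 2, and the methods' t-test passed 0, 0 and 1. Il6st arrays lay higher in TBI+E33 than in TBI+JM6 (-1.04 ± 0.34, SE, TBI+JM6 minus TBI+E33; limma adjusted p = 1) and than in TBI+PMI (-1.33 ± 0.34, SE, limma adjusted p = 0.135), with no overlap between arrays. Socs1 arrays lay higher in TBI+E33 than in TBI+PMI, also without overlap (-0.94 ± 0.35, SE, limma adjusted p = 0.229). All 3 TBI+PMI arrays were on slide 3 and both TBI+E33 arrays on slide 4. Treatment and slide therefore cannot be told apart in that pair. Such genes, lower without overlap, made up 14.6% of all genes in TBI+JM6 vs TBI+E33 and 39.9% in TBI+PMI vs TBI+E33, and neither gene passed the adjusted test. Il6st was tested only because of its TBI+E33 arrays, so its higher place there is no support for a difference. Socs1 was tested only because of its TBI+JM6 and TBI+E33 arrays, and the same limit holds for it. For Stat3 the 95% confidence intervals of the differences were -0.36 to 0.90 for TBI+JM6 minus TBI+PMI, -0.60 to 0.82 for TBI+JM6 minus TBI+E33 and -0.87 to 0.55 for TBI+PMI minus TBI+E33. For Socs3 they were -0.48 to 1.92, -1.07 to 1.61 and -1.79 to 0.89.

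Under the 75th percentile scaling, the order of the group means was Sham, Naive, TBI, TBI+PMI, TBI+E33 and TBI+JM6 for Stat3 and for Osmr, from lowest to highest. For Socs3 it was Naive, Sham, TBI, TBI+PMI, TBI+E33 and TBI+JM6, also after quantile normalization. After quantile normalization TBI+E33 came below TBI+PMI for Stat3 (mean log2 signal 9.09 and 9.12), and for Osmr TBI had the highest mean, at 6.34, above TBI+JM6 at 6.23, TBI+PMI at 6.04 and TBI+E33 at 5.59. Neighbours within the control pair and within the drug groups did not pass the test for any of these genes, nor did TBI against its neighbours for Osmr or against Sham, its lower neighbour, for Socs3. The leukocyte sum was 2.91 to 7.68 in the drug groups. Under the 75th percentile scaling 1 to 2 of 6 tested markers were called higher than TBI, where 54.7% to 69.1% of all genes were. None was called higher after quantile normalization. The astrocyte sum under the 75th percentile scaling was 28.6 to 50.5, above all TBI arrays. The median change of the 7 astrocyte markers was 0.46 in TBI+JM6, 0.25 in TBI+PMI and 0.58 in TBI+E33, below the medians of all genes (0.95, 0.74 and 1.03), and -0.34, -0.33 and -0.15 after quantile normalization, with 1 marker called higher in each group and 1 lower in TBI+JM6 and in TBI+PMI. Their part in the higher Stat3 and Socs3 signal was not tested.

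The most similar profiles were sought for Osmr, Stat3 and Socs3, each called in TBI against at least 1 control group. Likeness was the root-mean-square difference over 16 arrays between profiles centred on their own means, among 21895 probes. The difference between sessions is part of each profile. For Osmr, whose own SD over the arrays was 1.86, they were Emp1 (an epithelial membrane protein) at 0.47, RGD1565648 at 0.57 and LOC685108 at 0.58. For Stat3 (SD 1.59) they were Pklr (a pyruvate kinase) at 0.29, LOC497796 at 0.36 and Akr1b8 (an aldo-keto reductase) at 0.37, but the Pklr and LOC497796 probes were well above background on only 8 of 16 arrays, so that their likeness rests in part on values at background. For Socs3 (SD 2.28) they were S1pr3, a receptor for sphingosine-1-phosphate, at 0.51, the STAT3 target Bcl3 at 0.54 and a probe without a gene name at 0.57, which were well above background on 12, 13 and 10 arrays.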

How the data were processed

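Hippocampal gene expression was measured on single-colour Agilent rat arrays of 16 rats. According to the file headers, the authors obtained each spot's intensity with Agilent Feature Extraction 9.5.3.1, which subtracted local background and a spatial trend, with no step between arrays. The matrix, as deposited by the authors, holds a ratio to the 75th percentile on a linear scale, with 1 distribution on all arrays, and was used as an alternative. Per the labels, RNA was amplified with either of 2 kits; which arrays had which is not given in the sources used here. Flags for signal well above background and for outlying spots were taken as deposited.

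Control spots were dropped, the other 42877 were reduced to 30367 probe means, and each mean was expressed as log2 of its ratio to the array's 75th percentile, taken where signal was well above background. A probe entered the test if some group had it well above background throughout (22821 probes). The limma model had 1 mean per group, no intercept and all 16 arrays (residual degrees of freedom 10), with p-values adjusted by Benjamini-Hochberg over all tested probes, and a threshold of 0.05. A gene was read from its brightest tested probe. The spread is that between rats, with 2 or 3 per group, and the number of arrays limits the precision. Where a group had no array well above background, a fold of the means is also given. For it, that group's values were raised to at least the lowest signal well above background on each array. It carries no sampling error. Alternatives were normexp (offset 50), quantile normalization, scaling to the percentile of every probe on the array, other filters, the authors' matrix, the methods' t-test (over 1.2-fold and unadjusted p), 2-group fits, slide and replicate blocks and each array left out; removal of a trend on probe base composition was chosen after the data were seen. Pathway genes were named where called in TBI vs Sham, at most 4 per list, and those named outside this rule after their values were seen are marked as such. The genes and lists were chosen with earlier results of these data known. Replicate numbers did not pair the samples: deviations of same-numbered arrays correlated at -0.185 to 0.183. The fit was tested on simulated data. The methods give 3 rats per group; 2 arrays each of Sham and TBI+E33 were analysed here. Software was R 4.3.3 (limma 3.58.1) for all tests and Python 3.11.15 for figures. No genome was used, and positions are those of rn4 in the files.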

Additional observations from a re-analysis of the deposited data

How the results depend on the processing

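The counts of genes called out of 9 moved with the processing, and the causes were not tested. In TBI vs Sham (2 called) normexp background correction and the slide as a fixed block gave 0, and the filter to probes well above background on all 16 arrays, which leaves 5 genes, gave 1. In TBI vs Naive (2 called) normexp and the slide block gave 0, while no filter, the filter to all 16 arrays and the authors' matrix gave 1 and the methods' t-test gave 5. In Sham vs Naive (0 called) the t-test gave 1, as it did in TBI+PMI vs TBI+E33 (0 called). In TBI+JM6 vs TBI (7 called, all higher) normexp gave 3, quantile normalization and the authors' matrix 3 (2 higher, 1 lower), removal of the base composition trend 3 (1 higher, 2 lower), and the filter to all 16 arrays gave 4. In TBI+PMI vs TBI (6 called, all higher) normexp gave 1, quantile normalization and the authors' matrix 2 (1 higher, 1 lower), the base composition trend 2 (both lower, Jak2 and Stat2), the 75th percentile over all probes 3 (2 higher, 1 lower) and the filter to all 16 arrays 3. In TBI+E33 vs TBI (6 called, all higher) normexp and the filter to all 16 arrays gave 3, and quantile normalization and the authors' matrix gave 2 (1 higher, 1 lower). There, removal of the base composition trend called only Il6st higher, and called Jak1, Jak2 and Stat2 lower. The 75th percentile over all probes also called Stat2 lower in TBI+E33 and TBI+JM6. With 1 array left out in turn, the counts ran from 0 to 2 in both TBI vs Sham and TBI vs Naive, 6 to 8 in TBI+JM6 vs TBI, 5 to 6 in TBI+PMI vs TBI and in TBI+E33 vs TBI, and stayed at 0 in the other 4 comparisons.

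Among called values, direction changed in drug comparisons with TBI and in no other comparison. Quantile normalization turned Il6st (-0.02) and Jak2 (-0.04) in TBI+JM6, Socs1 in TBI+E33 (-0.23), TBI+JM6 (-0.63) and TBI+PMI (-0.78), and Socs2 in TBI+E33 (-0.56) and TBI+PMI (-0.10). The authors' matrix turned Jak2 (-0.04) in TBI+JM6, Socs1 in the same 3 groups (-0.17, -0.51 and -0.67) and Socs2 in TBI+E33 (-0.52) and TBI+PMI (-0.11). Normexp turned Il6st (-0.09) and Socs1 (-0.18) in TBI+PMI, and the 75th percentile over all probes turned Jak2 (-0.06) in TBI+JM6. Removal of the base composition trend turned Jak1 in TBI+E33 (-0.39), TBI+JM6 (-0.12) and TBI+PMI (-0.21), Jak2 in the same groups (-0.94, -0.53 and -0.66), Socs1 in TBI+PMI (-0.03) and Socs2 in TBI+E33 (-0.15). Directions were compared where a value was called under the main setting or the alternative. Stat3 and Socs3 were above 0 under every setting run in TBI vs Sham, TBI vs Naive and the 3 drug comparisons with TBI.

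With the replicate number as a replicate block, Stat3 changed by 1.92 in TBI vs Sham (limma adjusted p = 0.015), and each count of calls stayed within 1.5 times. The random slide block had a consensus correlation of -0.088. Drug groups could not be compared with TBI with the slide as a fixed block, since no slide held both, and the mean over a gene's probes equals the value given, since each gene has 1 probe. Dim signal limits Il6st, Socs1 and Osmr most.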
